A study of Mus musculus with 35 samples.

Results

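The lymphatic and hyaluronan receptor genes described here are Lyve1, Stab1, Prox1, Flt4, Mmrn1 and Reln, taken by symbol from the table of deposited expression values. All 6 were among its 22211 genes, each in 1 row, and all 6 passed the filter on low values that left 16786 genes for testing. Their RNA was measured in whole left lung lobes of 35 male mice aged 7 to 9 weeks, harvested on day 3 after injections under the skin on 2 consecutive days. The groups were anti-Ly6G mice at ZT16 (n = 7) and ZT4 (n = 7), DT mice at ZT16 (n = 3) and ZT4 (n = 4), and control mice at ZT16 (n = 7) and ZT4 (n = 7). ZT is the number of hours after lights on, so ZT4 falls in the rest phase and ZT16 in the active phase of a mouse under 12 hours of light.

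Anti-Ly6G mice were wild type and received 3 µg per g body weight of 1A8, an antibody against a neutrophil surface protein. Control mice were wild type and received the same dose of control IgG. DT mice carried MRP8-Cre and a floxed iDTR, and received diphtheria toxin at 10 ng per g. MRP8-Cre is active mainly in neutrophils but also in other myeloid cells, and iDTR gives cells that express Cre a receptor for the toxin. All DT libraries belong to the April 2018 batch, which has no other treatment, so the toxin, the genotype and the batch cannot be told apart, and levels of DT mice were not tested against those of the other groups. Every anti-Ly6G and control group held 3 mice of a July 2017 batch and 4 of a September 2017 batch. All lobes were taken at 1 clock time in the morning, with ZT16 mice housed in cabinets of inverted light, so each time difference is also a difference of housing.

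Lymphatic vessels drain fluid and immune cells from the lung, and their endothelium is set up by the transcription factor encoded by Prox1. That factor maintains VEGFR3, the receptor for VEGF-C and VEGF-D that is encoded by Flt4 and drives lymphatic growth. Lyve1 and Stab1 encode receptors for hyaluronan, a large sugar polymer of the extracellular matrix. LYVE1 marks lymphatic capillaries, where leukocytes enter the vessel, but is also made by a subset of tissue macrophages. Stabilin-1 is a scavenger receptor of macrophages and of sinusoidal and lymphatic endothelium. Mmrn1 encodes multimerin 1, a protein of lymphatic endothelium and of platelets, and Reln encodes reelin, a secreted glycoprotein that lymphatic endothelium makes in addition to neurons.

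On the GRCm38 build, Lyve1 lies at chromosome 7, 110850607 to 110863239, Stab1 at chromosome 14, 31139013 to 31168641, and Prox1 at chromosome 1, 190118035 to 190170714. Flt4 lies at chromosome 11, 49609263 to 49652739, Mmrn1 at chromosome 6, 60924976 to 60989378, and Reln at chromosome 5, 21884454 to 22344702. Exons of Lyve1, Flt4 and Mmrn1 overlap no exon of another annotated gene. Exons of Stab1 share 112 bases with Nt5dc2, those of Prox1 133 with the antisense gene Prox1os and those of Reln 246 with Gm10475, all on the opposite strand. No source used here says whether counting used strand, so reads in these bases cannot be assigned. Values of different genes are not compared as levels below, because it is not known whether they were divided by gene length.

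All libraries carried lung epithelial RNA, with the surfactant gene Sftpc at 13781 to 19990 and the club cell gene Scgb1a1 at 21013 to 39576. Lymphatic chemokine Ccl21a, which has near-identical copies, stood at 56.7 to 93.3 and podoplanin (Pdpn), shared by lymphatic and alveolar type 1 cells, at 80.9 to 167. The interstitial macrophage markers Folr2 (2.67 to 6.43), Mrc1 (38.6 to 66.7) and Cd163 (6.23 to 18.3) were present in every library, with Timd4 near the floor (0.407 to 2.68). Heart muscle RNA was also present (Myh6 at 260 to 560). The depth of the libraries is unknown, since the values are not multiples of a read.

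In anti-Ly6G and in control mice Lyve1 had the largest time difference of the 6 members, while in DT mice it had the smallest. In anti-Ly6G mice its values were 334 at the lowest, 385 at the median and 417 at the highest at ZT16, against 124, 189 and 220 at ZT4. All 7 libraries at ZT16 lay above all 7 at ZT4. Of all genes tested, 3.12% were separated in this way with ZT16 above. The means were 381 ± 28.3 at ZT16 and 183 ± 28.9 at ZT4 (SD, n = 7 each), a 2.10-fold rise or 1.07 ± 0.15 on the log2(value + 0.5) scale (SE, limma, adjusted p = 4.3e-06). July gave 1.06 and September 1.07. In this contrast 20.9% of all genes passed the threshold of 0.05, and Lyve1 held place 37 of 16786 by size of rise.

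In DT mice the 3 libraries at ZT16 had Lyve1 values of 429, 211 and 226, against 300, 227, 232 and 218 in the 4 libraries at ZT4. One library at ZT16 was the highest of the batch and the other two lay below or among those at ZT4. The difference of 0.18 ± 0.22 did not pass (limma, adjusted p = 0.629), with a 95% interval of -0.26 to 0.62. It had the other sign, -0.15, without ZT16_DT Apr#1, the library at 429.

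In control mice Lyve1 had values of 270, 327 and 632 at ZT16 (lowest, median, highest), against 180, 261 and 311 at ZT4. All 7 libraries at ZT16 lay above the ZT4 median and 5 of them above every library at ZT4, with the ranges overlapping. The means were 374 ± 122 at ZT16 and 253 ± 47.0 at ZT4 (SD, n = 7 each). Lyve1 rose by 0.53 ± 0.15 on the log2 scale, or 1.44-fold (limma, adjusted p = 0.0224), 0.67 in July and 0.43 in September, where 9.04% of all genes passed. This call rested on single libraries. It was lost without ZT16_control Sep#3, the library at 632 (0.39, adjusted p = 0.0753), without ZT4_control Sep#3 (0.49, adjusted p = 0.0523) and without ZT4_control Jul#1 (0.45, adjusted p = 0.068). ZT16_control Sep#3 also had the highest value of the heat shock gene Hspa1b, 712 against a median of 44.6 over the 35 libraries, and the part of this in its Lyve1 value was not tested. Of 13 mature neutrophil genes tested in control mice, 0 rose, 2 fell and 11 did not pass. The summed level of the 15 in the table had a median of 82.9 at ZT16 (38.8 to 126) and 100.3 at ZT4 (84.0 to 969), and their part in the result was not tested.

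**Figure D1:**
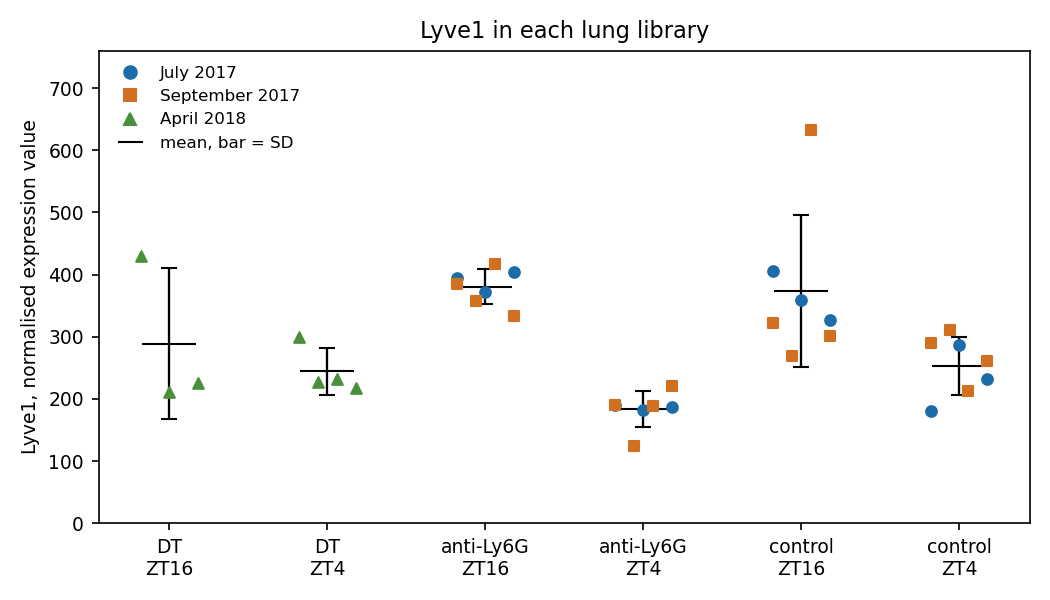
Normalised expression value of Lyve1 in each of the 35 lung libraries, by treatment and time, with batches marked by symbol. Horizontal lines are group means and bars are SD. The 7 anti-Ly6G libraries at ZT16 (334 to 417) all lie above the 7 at ZT4 (124 to 220), while the ranges overlap in DT and in control mice.

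Averaged over the 3 treatments with equal weight, Lyve1 was higher at ZT16 by 0.59 ± 0.10 (limma, adjusted p = 5.19e-05), in a contrast where 20.8% of all genes passed, 8.88% higher and 11.9% lower. The other 5 members lay between -0.12 (Flt4) and 0.12 (Mmrn1) in that average and none of them passed (lowest adjusted p = 0.151). The Lyve1 time difference of DT mice was smaller than that of anti-Ly6G mice by 0.89 ± 0.26 (limma interaction, adjusted p = 0.0165). That call was lost without ZT4_DT Apr#1 (-0.79), ZT16_DT Apr#2 (-0.71) or ZT16_DT Apr#3 (-0.75). DT minus control was -0.35 ± 0.26 (adjusted p = 0.386), and was -0.68 without ZT16_DT Apr#1, -0.17 without ZT16_DT Apr#2 and -0.22 without ZT16_DT Apr#3 or ZT16_control Sep#3. Anti-Ly6G minus control was 0.54 ± 0.21 (limma interaction, adjusted p = 0.812), where 0 genes were called and 1007 had an unadjusted p under 0.05, so the larger rise in anti-Ly6G mice was not shown to differ from that of control mice. These differences share libraries with each other.

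The other hyaluronan receptor gene, Stab1, varied little. In anti-Ly6G mice it had values of 123, 143 and 155 at ZT16 (lowest, median, highest), against 112, 122 and 142 at ZT4. In DT mice it had values of 136, 110 and 115 at ZT16, against 157, 145, 128 and 120 at ZT4. In control mice it had values of 117, 134 and 156 at ZT16, against 116, 125 and 153 at ZT4. The ranges of both times overlapped in each treatment. None of its time differences passed, 0.16 ± 0.07 in anti-Ly6G mice (adjusted p = 0.117), -0.19 ± 0.10 in DT mice (adjusted p = 0.219) and 0.05 ± 0.07 in control mice (adjusted p = 0.761). The 95% interval in control mice was -0.10 to 0.19, beside 0.22 to 0.84 for Lyve1, and the 2 genes were not tested against each other. The time difference of Stab1 was lower in DT than in anti-Ly6G mice by 0.34 ± 0.13 at the edge of the threshold (limma, adjusted p = 0.0497). Leaving out 1 library ended that call in 13 of 21 cases, with values of -0.34 to -0.28. These were ZT16_antiLy6G Sep#1, Sep#3, Jul#1 and Jul#2, ZT4_antiLy6G Sep#1, Sep#2, Sep#3, Jul#1 and Jul#2, ZT16_DT Apr#2 and Apr#3, and ZT4_DT Apr#1 and Apr#2.

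Prox1, the factor that gives lymphatic endothelium its identity, had low values and no time difference that passed. It ranged over 2.95 to 7.15 at ZT16 and 2.99 to 4.94 at ZT4 in anti-Ly6G mice, 2.14 to 4.68 and 3.67 to 5.76 in DT mice, and 3.37 to 5.60 and 3.13 to 6.61 in control mice. These ranges overlapped throughout. The differences were 0.19 ± 0.17 in anti-Ly6G mice (adjusted p = 0.455), -0.35 ± 0.24 in DT mice (adjusted p = 0.348) and -0.10 ± 0.17 in control mice (adjusted p = 0.784). With 1 library left out, the value in DT mice ranged over -0.55 to -0.07, the end nearest 0 without ZT16_DT Apr#2, and that in control mice over -0.17 to -0.01, the end nearest 0 without ZT4_control Sep#3. In control mice July gave 0.26 and September -0.36. The 95% interval in control mice was -0.44 to 0.24, and that of Lyve1 in the same mice was 0.22 to 0.84. These intervals overlap, and Prox1 and Lyve1 were not tested against each other.

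Flt4 was the member that fell at ZT16 in DT mice. Its values there were 48.7, 37.9 and 42.2 at ZT16, against 69.7, 64.9, 56.0 and 49.9 at ZT4. All 3 libraries at ZT16 lay below all 4 at ZT4, as did 15.3% of all genes. The fall was -0.48 ± 0.13, or 0.718-fold (limma, adjusted p = 0.0115; exact permutation p = 0.0571, where the smallest p that 3 against 4 mice allow is 0.0286). The call was lost without ZT4_DT Apr#1 (-0.40) or ZT16_DT Apr#2 (-0.39). In anti-Ly6G mice Flt4 had values of 48.1, 57.7 and 66.8 at ZT16 (lowest, median, highest), against 40.3, 51.4 and 59.7 at ZT4, a difference of 0.17 ± 0.09 (adjusted p = 0.192). In control mice the values were 41.9, 52.1 and 62.0 at ZT16, against 45.9, 52.9 and 61.7 at ZT4, a difference of -0.06 ± 0.09 (adjusted p = 0.748). The time difference was lower in DT than in anti-Ly6G mice by 0.64 ± 0.16 (limma, adjusted p = 0.00445), and each of the 21 fits without 1 library kept this call (-0.74 to -0.56). Against control mice it was lower by 0.42 ± 0.16, which did not pass (adjusted p = 0.0704).

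In that DT contrast 15.3% of all genes passed, 5.3% higher and 9.98% lower at ZT16. As deposited, 34.7% of the calls were rises, against 51.8% after quantile normalisation, under which the difference of Flt4 was -0.42. The corresponding shares of rises were 39% and 50.5% for DT minus anti-Ly6G, and 35.7% and 52.6% for DT minus control. The number of genes called in DT mice, 2565, was 1190 without ZT4_DT Apr#1, 1559 without ZT16_DT Apr#1 and 1537 without ZT16_DT Apr#2. For DT minus control, 2314 genes were called, and 1161, 1462 and 1488 without the same 3 libraries. For DT minus anti-Ly6G, 3202 were called, and 2121 without ZT4_DT Apr#1.

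Of the 2 secreted members, Mmrn1 rose at ZT16 in anti-Ly6G and in control mice. Its values were 19.6, 24.8 and 27.8 at ZT16 (lowest, median, highest) in anti-Ly6G mice, against 15.2, 19.5 and 24.7 at ZT4. In control mice they were 21.1, 24.5 and 26.96 at ZT16, against 14.7, 19.97 and 22.5 at ZT4. In both treatments all 7 libraries at ZT16 lay above the ZT4 median, with overlapping ranges. The rise was 0.32 ± 0.12 in anti-Ly6G mice (limma, adjusted p = 0.0493) and 0.37 ± 0.12 in control mice (adjusted p = 0.0429), both just past the threshold. In anti-Ly6G mice the call was lost without 1 library in 11 of 14 cases (0.27 to 0.34). These were ZT16_antiLy6G Sep#1, Sep#2, Sep#3, Jul#1 and Jul#2, and ZT4_antiLy6G Sep#1, Sep#2, Sep#3, Sep#4, Jul#2 and Jul#3. In control mice it was lost in 8 of 14 cases (0.31 to 0.38), those without ZT16_control Sep#1, Sep#3, Jul#1 or Jul#2, or without ZT4_control Sep#1, Sep#3, Jul#1 or Jul#2.

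In DT mice Mmrn1 went the other way without passing, with values of 23.4, 14.4 and 17.2 at ZT16, against 30.8, 23.3, 20.3 and 18.2 at ZT4 (-0.33 ± 0.17, adjusted p = 0.176). Its time difference was lower in DT than in anti-Ly6G mice by 0.65 ± 0.20 (limma, adjusted p = 0.0231) and lower than in control mice by 0.70 ± 0.20 (adjusted p = 0.021). Against anti-Ly6G mice 19.1% of all genes passed, 7.44% higher and 11.6% lower, and against control mice 13.8%, 4.93% higher and 8.86% lower. Both calls were lost without ZT4_DT Apr#1 (-0.51 and -0.55), ZT16_DT Apr#2 (-0.49 and -0.54) or ZT16_DT Apr#3 (-0.62 and -0.67). Platelet genes were counted beside Mmrn1. Of 13 tested 0 rose and 1, the integrin gene Itgb3, fell in each treatment, and the summed platelet level in control mice was 65.3 to 85.3 at ZT16 and 72.3 to 89.4 at ZT4. The part of platelets in the Mmrn1 difference was not tested.

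Reln had positive time differences in anti-Ly6G mice (0.31 ± 0.16, adjusted p = 0.165) and control mice (0.39 ± 0.16, adjusted p = 0.106), and a negative one in DT mice (-0.37 ± 0.22, adjusted p = 0.268). None of them passed. In anti-Ly6G mice its values were 8.70, 11.4 and 15.9 at ZT16 (lowest, median, highest), against 7.42, 8.60 and 13.7 at ZT4. July gave 0.71 there, while September gave -0.0005. In DT mice its values were 10.3, 6.95 and 9.00 at ZT16, against 15.5, 12.7, 10.9 and 7.65 at ZT4. In control mice they were 7.52, 12.1 and 14.1 at ZT16, against 6.52, 7.90 and 10.5 at ZT4, with 5 of 7 libraries at ZT16 above all of ZT4.

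**Figure D2:**
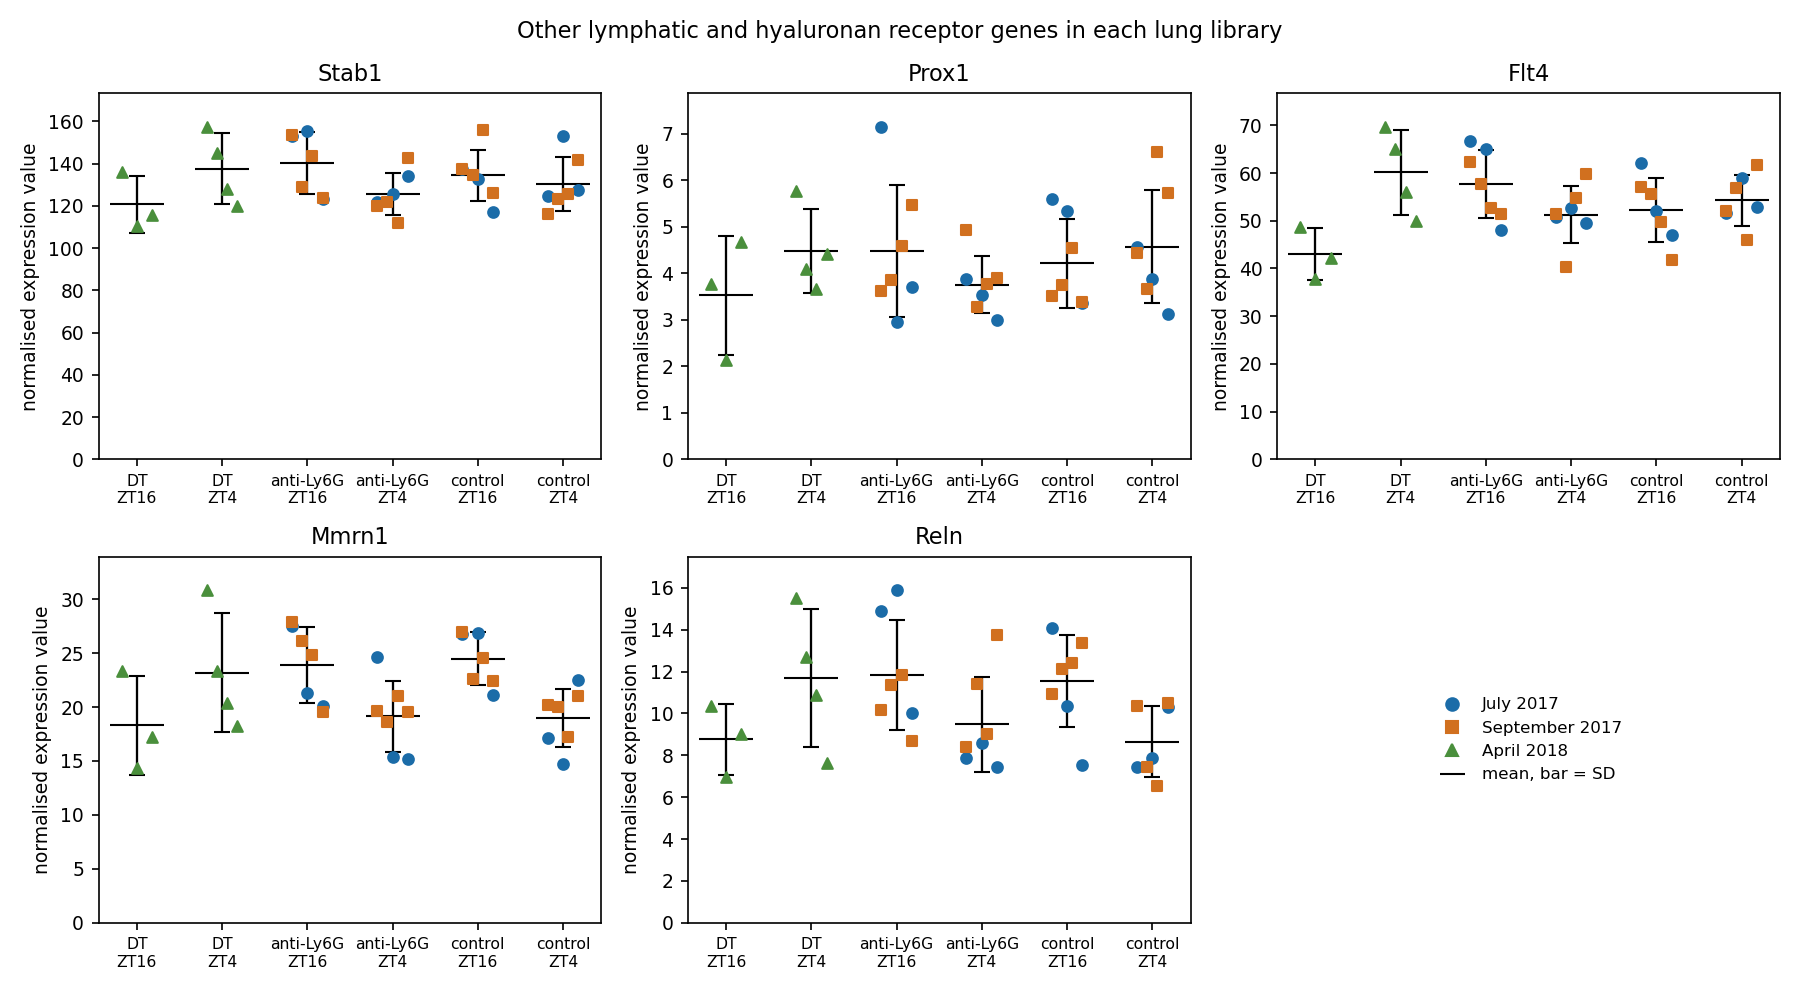
Normalised expression values of Stab1, Prox1, Flt4, Mmrn1 and Reln in each library, by treatment and time, with group means and SD. Flt4 at ZT16 in DT mice (37.9 to 48.7) lies below all 4 DT libraries at ZT4 (49.9 to 69.7), and the ranges of both times overlap for every other gene and treatment shown.

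Counted over the members, 2 of 6 rose and 0 fell in anti-Ly6G mice, where 10.6% of all genes rose and 10.4% fell. In DT mice 0 rose and 1 fell, where 5.3% of all genes rose and 9.98% fell, and in control mice 2 rose and 0 fell, where 4.65% rose and 4.38% fell. Lyve1 in anti-Ly6G mice and Flt4 in DT mice were the only member values without overlap between the times. Among all genes, 2.06% lay wholly below at ZT16 in anti-Ly6G mice, 10.9% wholly above in DT mice, and 1.36% above and 1.02% below in control mice. The median time difference of the 6 members was 0.25 in anti-Ly6G mice, -0.34 in DT mice and 0.21 in control mice, against -0.02, -0.01 and -0.002 over all genes tested. With 6 members, these shares do not stand as a result about the group.

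**Figure D3:**
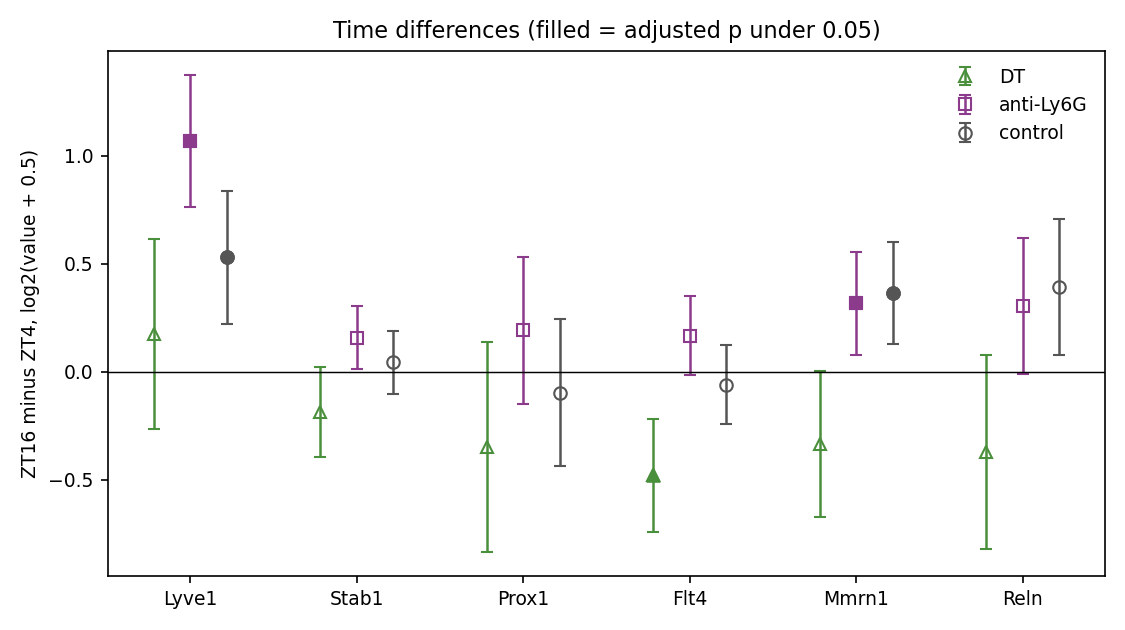
Difference between ZT16 and ZT4 on the log2(value + 0.5) scale for each member, with bars for the 95% interval and filled symbols for an adjusted p under 0.05. Lyve1 in anti-Ly6G mice (1.07) is the largest of the 18 differences, and 5 of the 6 members have negative values in DT mice.

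Set against the other lymphatic genes of the same library, Lyve1 stood higher at ZT16 in each treatment. The measure here is log2 Lyve1 minus the mean log2 value of Prox1, Flt4, Mmrn1 and Reln, given as a description without a test. In anti-Ly6G mice it was 4.49 ± 0.19 at ZT16 and 3.67 ± 0.23 at ZT4 (mean ± SD, n = 7 each), and the groups did not overlap. In DT mice it was 4.40 ± 0.40 at ZT16 (n = 3) and 3.84 ± 0.12 at ZT4 (n = 4), with the lowest library at ZT16 (4.03) just above the highest at ZT4 (3.97). With Flt4 left out of the mean, the lowest DT library at ZT16 (4.57) lay below the highest at ZT4 (4.58). In control mice the measure was 4.46 ± 0.37 at ZT16 and 4.08 ± 0.29 at ZT4 (n = 7 each), with 2 of 7 libraries at ZT16 above all of ZT4. The difference of means was 0.82 in anti-Ly6G mice, 0.56 in DT mice and 0.38 in control mice. Without ZT16_DT Apr#1 it was 0.35 in DT mice and without ZT16_control Sep#3 it was 0.25 in control mice, while in anti-Ly6G mice it stayed within 0.74 to 0.87 with any 1 library left out. In DT mice most of it came from lower values of the other 4 genes, since Lyve1 itself differed by 0.18.

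**Figure D4:**
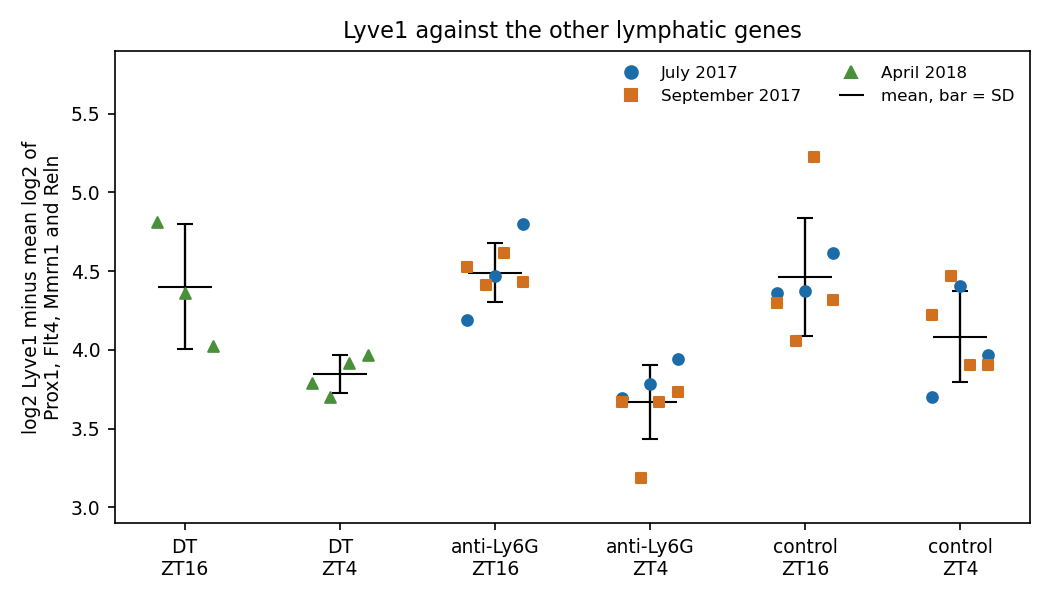
Log2 Lyve1 minus the mean log2 value of Prox1, Flt4, Mmrn1 and Reln in each library, with group means and SD; the axis does not start at 0. The 7 anti-Ly6G libraries at ZT16 (4.19 to 4.80) lie above all 7 at ZT4 (3.18 to 3.94), and in control mice the ranges overlap (4.06 to 5.23 at ZT16, 3.70 to 4.47 at ZT4).

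Among mice of 1 group and batch, Lyve1 varied with some of the other members. How many of all genes vary with Lyve1 as strongly was not counted. Genes outside the members reached an r of up to 0.80, so these relations cannot be read as particular to the members. Over the residuals of the 35 libraries from their group and batch means, Pearson's r with Lyve1 was 0.56 for Stab1 (permutation p = 0.00215, adjusted p = 0.0107 over 5 relations), with a Spearman rho of 0.48 (permutation p = 0.0117). For Flt4 r was 0.47 (permutation p = 0.0186, adjusted p = 0.0311) and rho 0.46 (permutation p = 0.0144). For Mmrn1 r was 0.41 (permutation p = 0.0171, adjusted p = 0.0311) and rho 0.44 (permutation p = 0.0138). Reln, with r of 0.33 (permutation p = 0.054, adjusted p = 0.0675) and rho of 0.33 (permutation p = 0.0828), and Prox1, with r of 0.19 (permutation p = 0.369, adjusted p = 0.369) and rho of 0.14 (permutation p = 0.483), did not pass. Without the 2 libraries farthest from the median, r was 0.51 for Stab1, 0.43 for Flt4, 0.40 for Mmrn1, 0.30 for Reln and 0.13 for Prox1. Without the 7 DT libraries no relation passed, with r of 0.47 for Stab1 (permutation p = 0.0332, adjusted p = 0.166), 0.37 for Flt4 (permutation p = 0.136) and 0.18 for Mmrn1 (permutation p = 0.282), so the relations rest in part on the DT libraries. Among the other pairs, r was 0.69 for Stab1 with Flt4, 0.61 for Stab1 with Reln, and 0.55 to 0.57 for the 3 pairs of Flt4, Mmrn1 and Reln, while no pair with Prox1 exceeded 0.30.

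The genes whose residuals were most like those of Lyve1 over the 35 libraries were Tcn2 (r = 0.80), which encodes the vitamin B12 carrier transcobalamin 2, Ppp1r15a (0.79), Npr3 (0.78), the noradrenaline transporter gene Slc6a2 (0.78), the transcription factor gene Foxf1 (0.77) and Dll1 (0.77). Tcn2 and Slc6a2 also rose at ZT16, by 0.87 and 1.04 in anti-Ly6G mice (limma, adjusted p = 8.8e-07 and 0.000117). In control mice they rose by 0.53 and 0.59 (adjusted p = 0.00218 and 0.0384), and neither passed in DT mice (-0.41 and 0.03). Npr3 rose in anti-Ly6G mice alone (0.61, limma, adjusted p = 0.0182). Ppp1r15a and Dll1 passed in no treatment. Foxf1 fell in DT mice (-0.44, limma, adjusted p = 0.034) and did not pass in anti-Ly6G (-0.13) or control mice (-0.25). Without ZT16_control Sep#3, Tcn2, Slc6a2 and Foxf1 stayed among the first 6, and Cyp4b1 (0.79), Prkch (0.73) and Entpd1 (0.73) took the other places. For Stab1 the most similar gene was the VEGF receptor gene Flt1 (0.81), and for Prox1 it was Zfp69 (0.71).

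None of the members passed between anti-Ly6G and control mice at either time. Lyve1 at ZT4 was the largest difference, with a mean of 183 ± 28.9 in anti-Ly6G mice and 253 ± 47.0 in control mice (SD, n = 7 each), or -0.46 ± 0.15 on the log2 scale. Its unadjusted p was 0.00438 and its adjusted p 0.629 in limma, in a contrast where 0 genes were called and 1185 had an unadjusted p under 0.05. The exact permutation p within batch was 0.0114 (two-sided, single comparison). At ZT16 Lyve1 differed by 0.08 ± 0.15 (adjusted p = 0.987), where 0 genes were called and 701 had an unadjusted p under 0.05. The other 5 members lay between -0.23 (Prox1) and 0.12 (Reln) at ZT4 and between -0.04 (Mmrn1) and 0.14 (Flt4) at ZT16, with a lowest adjusted p of 0.787. The whole share of genes called was 0% at both times. This holds for the 13 mature neutrophil genes tested too, with median differences of -1.10 at ZT4 and -0.52 at ZT16.

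Other lymphatic genes were counted in the same contrasts. Of 29 further genes of lymphatic endothelium and its signals that were tested, 4 rose and 2 fell in anti-Ly6G mice, 1 rose and 8 fell in DT mice, and 0 rose and 4 fell in control mice, with medians of 0.003, -0.16 and 0.003. Of all genes, 10.6% rose and 10.4% fell in anti-Ly6G mice, 5.3% and 9.98% in DT mice, and 4.65% and 4.38% in control mice, and the counts of each list here and below are to be set beside these shares. For the lymphatic genes the counts most above their share were the falls in DT mice (8 of 29 against 9.98%) and in control mice (4 of 29 against 4.38%). The falls in DT mice were not particular to lymphatic genes, since 11 of 21 blood endothelial genes fell there too. The markers Ccl21a (-0.17) and Pdpn (0.12) did not pass in DT mice. The gap junction gene Gja1 fell in all 3 treatments (-0.48 in anti-Ly6G, -0.36 in DT and -0.28 in control mice). Itga9, which encodes an integrin of lymphatic valves, fell in DT (-0.46) and control mice (-0.28), and Angpt2, a ligand of the endothelial receptor TIE2, fell in DT mice (-0.80). The VEGFR3 ligand genes, named here after their values were seen, rose in anti-Ly6G mice, Vegfc by 0.43 and Figf (VEGF-D) by 0.41. In DT mice Vegfc fell (-0.35), and in control mice both had positive differences that did not pass (0.17 and 0.29). Of 8 further genes of VEGF, TIE2, TGF-beta and Notch signalling, 1 rose in anti-Ly6G mice, 3 fell in DT mice and 0 passed in control mice. Among the 3 was the co-receptor gene Nrp1 (-0.63).

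Of 20 other tested genes of hyaluronan (receptors, synthases, hyaluronidases and binding proteins), 3 rose and 2 fell in anti-Ly6G mice, 1 rose and 2 fell in DT mice, and 0 rose and 2 fell in control mice, with medians of -0.03, -0.19 and -0.07. The counts in anti-Ly6G mice lay near the shares of all genes. Cemip, whose product breaks hyaluronan down, fell by 1.28 in anti-Ly6G mice (limma, adjusted p = 0.000103) and by 1.08 in control mice (adjusted p = 0.00178), and its difference in DT mice was -0.28; its values were low, 0.0910 to 3.67. The receptor gene Layn rose by 0.31 in anti-Ly6G mice (adjusted p = 0.019) and measured 0.27 in control mice without passing. Cd44, the main hyaluronan receptor of leukocytes, differed by -0.09 in anti-Ly6G mice, rose by 0.27 in DT mice and fell by 0.21 in control mice. Stab2, the nearest relative of Stab1, had differences of -0.10, -0.56 and -0.15 that did not pass.

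Genes of macrophages, a subset of which also makes LYVE1, were counted beside Lyve1. In whole lobes, fewer cells of a type and less RNA per cell cannot be told apart. The list held 24 tested genes of interstitial macrophages, not all of them particular to cells that bear Lyve1. In anti-Ly6G mice 4 rose and 1 fell, in DT mice 2 rose and 1 fell, and in control mice 2 rose and 1 fell. The medians were 0.007, 0.17 and -0.005. Cd14 rose in each treatment, by 0.47 in anti-Ly6G, 0.68 in DT and 0.27 in control mice. Cbr2 rose in anti-Ly6G (0.36) and DT mice (0.44) and measured 0.18 in control mice without passing. Gas6 rose (0.20) and Mgl2 fell (-0.37) in control mice alone. The markers Folr2 and Mrc1 measured -0.25 and 0.04 in anti-Ly6G mice and -0.10 and -0.05 in control mice, without passing. In DT mice they measured 0.32 and 0.17, also without passing. F13a1 measured -0.11 in anti-Ly6G, -0.48 in DT and -0.19 in control mice and did not pass. Cd163 rose by 0.51 in anti-Ly6G mice (limma, adjusted p = 0.0269) and measured 0.01 in control mice. The summed level of these genes was 7065 to 9028 at ZT16 and 6239 to 7238 at ZT4 in anti-Ly6G mice, 7661 to 8447 and 5843 to 7426 in DT mice, and 7129 to 8192 and 6670 to 7429 in control mice. Cbr2, which airway cells also make, gave 3473 to 6438 of this sum over the 35 libraries. The part of macrophages in the Lyve1 difference was not tested.

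Blood endothelial genes moved beside Flt4 in DT mice. Of 21 tested, 0 rose, 11 fell and 10 did not pass there, with a median of -0.35. Among those that fell were Cdh5 (-0.88), the cadherin gene of endothelial junctions, Emcn (-0.74), Plvap (-0.62), Pecam1 (-0.46) and the VEGF receptor gene Kdr (-0.67). Ramp2 (0.22) and Cldn5 (-0.15) were among those that did not pass. The summed level of the blood endothelial genes did not overlap in DT mice, 5817 to 6443 at ZT16 and 7433 to 9068 at ZT4. Of all single genes, 15.3% lay wholly below at ZT16 in this contrast. The sum is no separate result, since it holds the genes just named, such as Cdh5 (463 to 1048 over the 35 libraries) and Pecam1 (522 to 855). In anti-Ly6G mice 7 rose and 2 fell, with a median of 0.02, and in control mice 4 rose and 2 fell, with a median of -0.05. The 4 that rose in control mice, named here after their values were seen, were Flt1 (0.30), Tek (0.37), Eng (0.33) and Calcrl (0.43). They also rose in anti-Ly6G mice (0.48, 0.40, 0.60 and 0.47). In DT mice they measured -0.29, -0.44, -0.29 and -0.39, and Tek and Calcrl passed as falls. Emcn fell in all 3 treatments. The part of blood endothelium in the differences of Flt4 and of Lyve1 was not tested.

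Mesothelial genes were also counted, since pleura carries lymphatic vessels. Of 14, 0 rose and 10 fell in anti-Ly6G mice, 1 rose and 1 fell in DT mice, and 0 rose and 1 fell in control mice. Of 13 heart muscle genes 0 passed in anti-Ly6G and in control mice and 1 fell in DT mice. Of 13 mature neutrophil genes 1 fell in anti-Ly6G mice, 0 passed in DT mice and 2 fell in control mice, and of 19 clock genes 9 rose and 2 fell, 3 rose and 0 fell, and 6 rose and 3 fell in the same order. The clock repressor gene Per2 rose in all 3 treatments, by 1.77 in anti-Ly6G, 1.04 in DT and 1.29 in control mice. It was named for its small p in these same data, so it is no separate check of the time labels. Nr1d1, which encodes the clock repressor REV-ERB alpha, fell in anti-Ly6G mice (-3.10) and in control mice (-3.40) but did not pass in DT mice (-0.51).

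**Figure D5:**
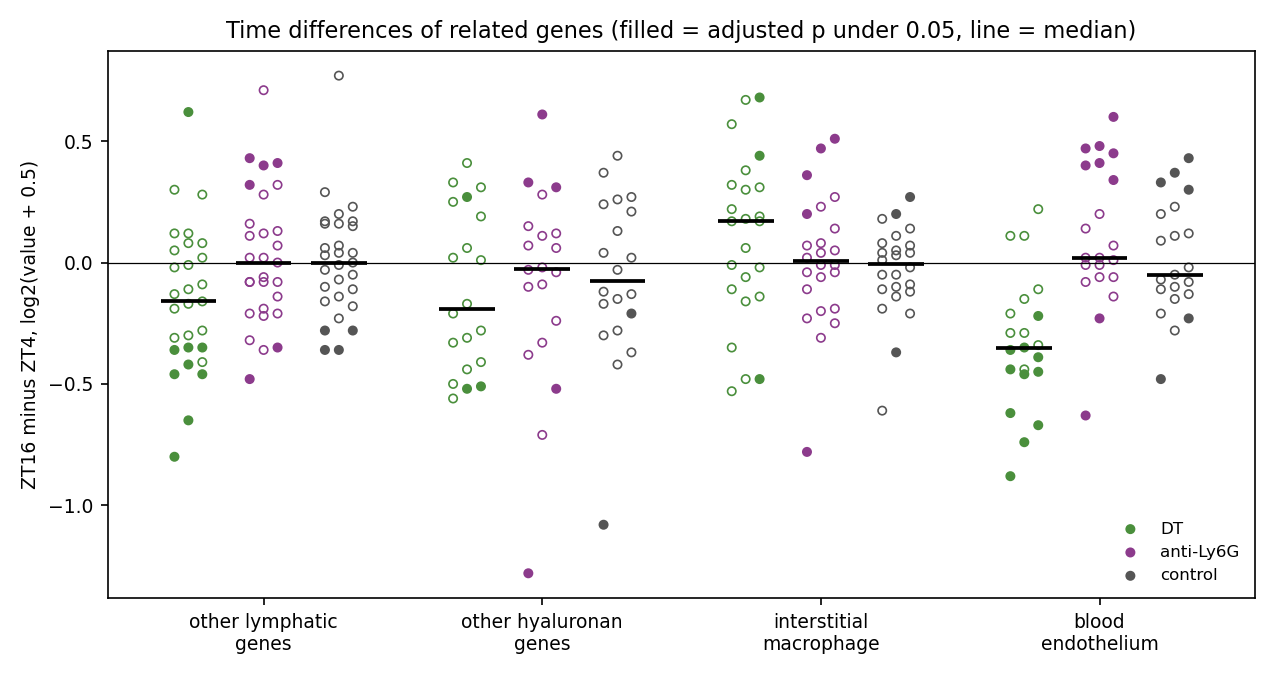
Difference between ZT16 and ZT4, on the log2(value + 0.5) scale, of each tested gene of 4 lists in DT, anti-Ly6G and control mice. Filled circles have an adjusted p under 0.05 and black lines are list medians; blood endothelial genes in DT mice have the lowest median (-0.35) and the lymphatic list in control mice lies at 0.003.

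Promoter windows of 300 bases, from 250 before to 50 after the start of transcription, were given by RefSeq on GRCm38.p6 for 5 of the 6 members, with 6 windows in all and none for Lyve1. They were searched on both strands for the E-box CACGTG (7.15% of 32851 windows hold it), the D-box TTATGTAA or TTACGTAA (1.06%) and the element AGGTCA of REV-ERB receptors (16.3%), all letters bound by clock factors. The only match was an E-box in the Reln window, and it is shown because it is the one clock-related motif found among the members. These letters start 71 bases before the start of transcription and lie within chr5:22344744-22344803 on the minus strand, with the E-box in capitals.
Reln: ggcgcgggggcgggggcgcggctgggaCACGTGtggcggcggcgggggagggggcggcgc
A match of letters is a description and not a site of binding. Reln did not pass the test of time in any treatment.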

How the data were processed

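Lung RNA of 35 mice was amplified (NuGen Ovation Single Cell) before TruSeq library preparation, per the labels' protocols. The submitters' processing notes list kallisto 0.43.1, RSEM 1.2.20, cutadapt, CASAVA 1.8.2 and GRCm38, with no role or order. The authors deposited normalised values per gene, read here as a signal: not whole, none at 0, with sums of 962649 to 1033550 per library, so neither counts nor CPM. Normalisation, batch adjustment and depth are not given in the sources used here. Over genes, the ratio of the September minus July difference to its SE had an SD of 0.516, where unadjusted batches give at least 1, and such alignment can make standard errors too small. Columns name a group and batch but no single sample, so libraries are called by table order (ZT16_control Sep#3). Separate mice are assumed from the labels' 3 or 4 mice per group and batch. No libraries were identical (highest correlation 0.9931).

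A gene was kept if 3 or more libraries had a value of 1 or higher. limma 3.58.1 in R 4.3.3 with the trend option was fitted to log2(value + 0.5) of all libraries, with 6 group means plus a term for batch (September, July), leaving 28 residual df. Two-sided p-values of 10 contrasts received Benjamini-Hochberg adjustment over the kept genes, with a threshold of 0.05. This scale understates changes of low genes. Every adjusted p comes from this test unless named otherwise. Correlations used 100000 permutations within group and batch (scipy 1.17.1). The fits were tested on simulated data. The members and lists were chosen with earlier results of these data known. The text names all members, up to 4 genes per list of smallest p over the 3 treatments, listed cell markers, and the most correlated genes. Genes outside this rule (Vegfc, Figf, Cd44, Stab2, Hspa1b, Tek, Eng, Calcrl) were chosen after their values were seen.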

Additional observations from a re-analysis of the deposited data

Results flagged for a closer look

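2 of 30 sets of values of 1 gene in 1 group held a library far from the rest, where chance gives about 1 in 20. Lyve1 stood at 632 in ZT16_control Sep#3, where the next library had 405, and at 124 in ZT4_antiLy6G Sep#2, where the next had 182.

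The time difference of 4 members differed between treatments by the interaction test. Between DT and anti-Ly6G mice it did so for Lyve1 (-0.89, adjusted p = 0.0165), Stab1 (-0.34, adjusted p = 0.0497), Flt4 (-0.64, adjusted p = 0.00445) and Mmrn1 (-0.65, adjusted p = 0.0231), and between DT and control mice for Mmrn1 (-0.70, adjusted p = 0.021). Of all genes, 19.1% passed in the first of these contrasts and 13.8% in the second. With 1 of 21 libraries left out, the call of Flt4 was kept each time, while that of Lyve1 was lost in 3 fits, that of Stab1 in 13 and each of the 2 of Mmrn1 in 3. All 5 differences rest on the 7 DT libraries, and toxin, genotype and batch cannot be told apart in them.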

How the results depend on the processing

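No paired analysis was possible because the table's columns carry no replicate number that matches the labels. Over all other settings the rise of Lyve1 in anti-Ly6G mice kept its call (1.03 to 1.08, and 0.97 to 1.12 with 1 library left out), as did its average over 3 treatments (0.53 to 0.60, and 0.48 to 0.65). Its rise in control mice was lost in September alone (0.43) and without the 2 libraries of highest Hspa1b (0.39, an alternative chosen after seeing the data), and ranged over 0.39 to 0.60 with 1 library left out. In DT mice it ranged over -0.15 to 0.36, and its DT minus anti-Ly6G difference over -1.22 to -0.71. The difference of Lyve1 between anti-Ly6G and control mice at ZT4 passed only the exact permutation test, whose p is not adjusted over genes (-0.46, p = 0.0114). Mmrn1 lost its calls with no filter on low values (0.37 in control, 0.32 in anti-Ly6G mice), in July alone (0.46 and 0.34), in September alone (0.29 and 0.30) and without the 2 libraries of highest Hspa1b (0.37 and 0.34), and in anti-Ly6G mice with only the groups compared (0.32). With 1 library left out it ranged over 0.31 to 0.42 in control and 0.27 to 0.39 in anti-Ly6G mice. Flt4 in DT mice (-0.57 to -0.39 with 1 library left out) missed the exact permutation test (-0.48, p = 0.0571). Reln in control mice had an exact permutation p under 0.05 that is not adjusted over genes (0.39, p = 0.0243). With 1 library left out it ranged over 0.33 to 0.49 and passed only without ZT16_control Jul#3 (0.49, limma, adjusted p = 0.0453). Differences that passed in no setting changed sign in July alone for Stab1 (-0.06) and Prox1 (0.26) in control mice, in September alone for Reln in anti-Ly6G mice (-0.0005), and without ZT16_DT Apr#2 for Prox1 in DT minus control (-0.46 to 0.03). Stab1 in DT minus anti-Ly6G lost its call in 6 of 10 settings, down to -0.19 with quantile normalisation, while Reln (-0.84 to -0.73) and Flt4 (-0.43) in DT minus control gained one in 4 and 1 of 10. Without the DT libraries the correlations of Lyve1 with Stab1 (0.47), Flt4 (0.37) and Mmrn1 (0.18) lost theirs. Genes called fell to 309 in July alone and 482 in September alone in control mice (1517 pooled), and to 798 and 1467 in anti-Ly6G mice (3514 pooled), where fewer libraries enter. Where no cause is shown, the cause was not tested. Exact permutation was run for single comparisons only.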
